A study of Ambystoma mexicanum with 12 samples.

Results

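VWF, von Willebrand factor, and MMRN1, multimerin 1, are genes of the cells that line blood and lymphatic vessels. Every probe set of the axolotl array annotated with either symbol was taken, which gave 2 of the 8639 genes with a symbol and 4 of 20035 probe sets, 3 of VWF (axo07038-r_at, axo07039-f_at and axo07040-f_at) and 1 of MMRN1 (axo12885-f_at). A probe set is called a probe in what follows. RNA was measured in 12 skin punch biopsies of adult white axolotls (Ambystoma mexicanum), 3 each from uninjured skin and from full thickness wounds of 2 days, 14 days and 21 days after the injury (dpi, days post injury), with no transgene named by the paper in any group and p-amino benzocaine as its anaesthetic. Some labels point elsewhere. Their treatment text describes an ivermectin experiment on the spinal cord, with tissue pooled from 10 animals of 2 to 3 cm per array. Titles and tissue label give skin, as does the paper, whose methods name separate adult males, and skin was used. The 14-day arrays carry 7 days in a description label, against 14 days in their title and source label, and 14 days was used. It is not settled if an array stands for 1 animal or several, or if animals were sampled repeatedly, so each SD and p-value measures the spread between arrays only.

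Von Willebrand factor is a large multimeric glycoprotein made by endothelial cells and, in mammals, by megakaryocytes. Endothelial cells store it in Weibel-Palade bodies and release it at injury, where it tethers platelets to exposed collagen and carries coagulation factor VIII in plasma. The protease ADAMTS13 shortens its multimers. Multimerin 1 is a member of the EMILIN family of matrix glycoproteins, is stored in platelet granules and endothelial cells in mammals, and binds coagulation factor V. In human tissue it also marks lymphatic endothelium. Platelets are replaced in amphibians by nucleated thrombocytes. A biopsy mixes epidermis, dermis, vessels, blood and any muscle below the skin, so fewer endothelial cells and less VWF or MMRN1 RNA per endothelial cell cannot be told apart in any of these values.

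VWF, read by probe axo07038-r_at, was high in uninjured skin, fell close to the lower quartile of the array at 2 days and lay above the array medians (5.52 to 5.61) again at 14 and 21 days. Values are log2 intensities after robust multi-array average (RMA). The 3 uninjured arrays read 8.39, 8.74 and 7.71 (mean 8.28 ± 0.52 SD, n = 3). The 2-day wounds read 4.95, 3.94 and 4.18 (4.36 ± 0.53 SD, n = 3). All of them lay far below every uninjured array, with a gap of 2.76 between the groups. At 14 days the values were 7.70, 8.19 and 6.97 (7.62 ± 0.62 SD, n = 3), and at 21 days they were 8.88, 8.33 and 8.46 (8.56 ± 0.29 SD, n = 3). Both later groups overlapped with uninjured skin, and neither overlapped with the 2-day wounds.

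MMRN1, read by probe axo12885-f_at, also fell at 2 days, and its 14-day mean lay further below uninjured skin than that of VWF. Uninjured arrays read 8.53, 8.22 and 6.57 (7.78 ± 1.05 SD, n = 3), with replicate 3 well below the other two. The 2-day wounds read 4.59, 4.09 and 4.29 (4.32 ± 0.25 SD, n = 3). At 14 days the arrays were spread over 5.91, 7.06 and 5.18 (6.05 ± 0.95 SD, n = 3), so that only replicate 2 reached into the uninjured range. At 21 days they were close together at 7.78, 7.47 and 7.61 (7.62 ± 0.16 SD, n = 3), inside the uninjured range.

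**Figure D1:**
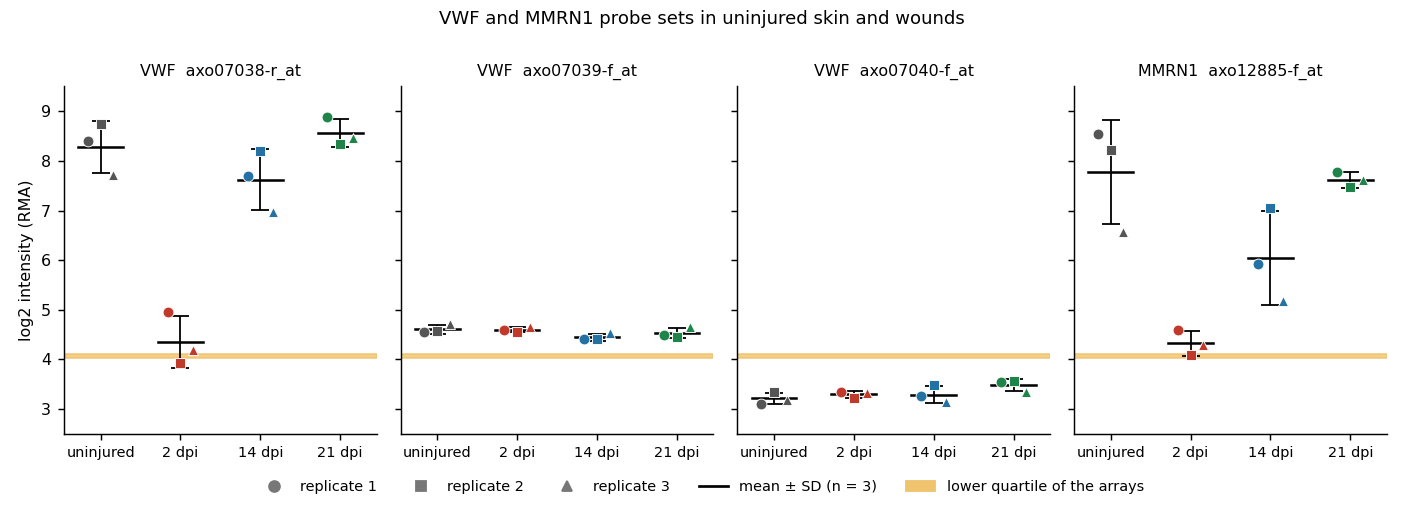
RMA log2 intensity (vertical axis) of the 3 VWF probes and the MMRN1 probe in uninjured skin and in wounds of 2, 14 or 21 dpi. Points are arrays, black bars are the mean ± SD (n = 3), and the band is the range of the lower quartiles of the arrays (4.04 to 4.11). VWF axo07038-r_at and MMRN1 drop close to the band at 2 dpi, with means above it, and lie well above it at 14 and 21 dpi, while the other VWF probes stay flat.

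In the comparison of 2-day wounds with uninjured skin, both genes were lower. VWF (axo07038-r_at) had a Log2-fold change of -3.92 (standard error 0.37, 95% confidence interval -4.73 to -3.11, adjusted p = 0.000242 from limma), a 15.2-fold lower intensity. MMRN1 had a Log2-fold change of -3.45 (standard error 0.52, 95% confidence interval -4.61 to -2.30, adjusted p = 0.00330 from limma). These were the 62nd and 83rd lowest changes among the 20035 probes, for genes chosen with earlier results of these data known. Of the 4 probes, 2 were called at an adjusted p under 0.05, both of them lower, where 9.28% of all probes were called and 3.86% were called lower. The same 2 had no overlap between the groups, which held for 26.5% of all probes. At 2 days VWF stood between the percentiles 22.9 and 41.5 of its arrays and MMRN1 between 26.1 and 35.6, against 75.4 to 85.0 and 62.5 to 83.2 in uninjured skin. The 2-day values lie near the lower quartile of the arrays (4.04 to 4.11), and the share of background in them was not tested.

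At 14 days neither gene was called against uninjured skin. VWF (axo07038-r_at) had a Log2-fold change of -0.66 (standard error 0.37, 95% confidence interval -1.47 to 0.15, adjusted p = 0.338 from limma). With array weights the VWF change was -1.20 and was called (adjusted p = 0.0334), and with arrays left out in turn it ranged from -0.94 to -0.33 with no call. MMRN1 had a Log2-fold change of -1.73 (standard error 0.52, 95% confidence interval -2.88 to -0.57, unadjusted p = 0.00748, adjusted p = 0.0761 from limma), a 3.31-fold lower intensity that was the 136th lowest of all probes. The MMRN1 call turned on single arrays: without uninjured replicate 3 the change was -2.33 (adjusted p = 0.00987) and without 14 dpi replicate 2 it was -2.23 (adjusted p = 0.0355), both called by limma. None of the 4 probes was called in all arrays (limma, with 1 of them, MMRN1, at an unadjusted p under 0.05), where 7.12% of all probes were, and 1, axo07039-f_at, had no overlap between the groups (23.2% of all probes). At 21 days VWF stood at 0.28 (95% confidence interval -0.53 to 1.09, adjusted p = 0.705) and MMRN1 at -0.16 (95% confidence interval -1.31 to 1.00, adjusted p = 0.897) against uninjured skin in limma, and 0 of the 4 probes were called (1, axo07040-f_at, at an unadjusted p = 0.0309), where 12.6% of all probes were, while 1, again axo07040-f_at, had no overlap (31.8% of all probes). These intervals leave room for a change of about 2-fold either way in MMRN1.

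Between wound times, VWF (axo07038-r_at) was higher at 14 days than at 2 days by 3.27 on the log2 scale (9.62-fold, adjusted p = 0.000788 from limma) and higher at 21 days than at 2 days by 4.20 (18.4-fold, adjusted p = 7.54e-05). MMRN1 was higher at 21 than at 2 days by 3.30 (9.83-fold, adjusted p = 0.00177 from limma). From 2 to 14 days its difference was 1.73, with no overlap between the arrays, and it missed the threshold (adjusted p = 0.0741 from limma). It was called without uninjured replicate 3 (adjusted p = 0.0243) and without 14 dpi replicate 3 (2.16, adjusted p = 0.0476). In these comparisons 1 of 4 probes was called at 14 against 2 days (7.54% of all probes) and 2 of 4 at 21 against 2 days (21.8% of all probes). The groups did not overlap in 3 of 4 probes in each (25.5% and 40.8% of all probes), namely axo07038-r_at, MMRN1 and 1 further VWF probe. At 14 against 2 days the further probe was axo07039-f_at, which was lower (-0.15, gap between the groups 0.025), opposite to axo07038-r_at. At 21 against 2 days it was axo07040-f_at, which was higher by 0.19 (gap 0.0089). Neither of these differences was called by limma. Between 14 and 21 days VWF differed by 0.94 (unadjusted p = 0.0274, adjusted p = 0.407) and MMRN1 by 1.57 (unadjusted p = 0.0126, adjusted p = 0.320) in limma. In both genes the 21-day arrays all lay above the 14-day arrays, which held for 2 of the 4 probes and for 15.7% of all probes, and neither was called, in a comparison where 0.17% of all probes were. Ordered by their means, VWF went from 21 days through uninjured skin and 14 days to 2 days, and only the last step passed the test between neighbours. MMRN1 went from uninjured skin through 21 and 14 days to 2 days, and no step between neighbours passed it. These comparisons share arrays, so a deviating group enters several of them.

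Set side by side, the 14-day mean of MMRN1 was 1.73 below its uninjured mean and that of VWF 0.66 below, on the log2 scale. The level of a probe cannot be set against that of another probe, because each has its own response, so what was compared is how the gap VWF minus MMRN1 (axo07038-r_at minus axo12885-f_at, on the log2 scale) moved between groups. The gap was -0.14, 0.51 and 1.13 in uninjured skin, 0.36, -0.15 and -0.11 at 2 days, 1.79, 1.13 and 1.79 at 14 days, and 1.10, 0.86 and 0.85 at 21 days. Its 14-day arrays lay above all arrays of the 2-day and 21-day groups and overlapped narrowly with uninjured replicate 3. The gap was wider at 14 days than in uninjured skin by 1.07 (two-sided exact permutation test, p = 0.2, where 3 arrays against 3 cannot give less than 0.1). Against the 2-day wounds it was wider by 1.54 at 14 days and by 0.90 at 21 days (exact permutation p = 0.1 in each, the smallest possible), and at 21 days it was narrower than at 14 days, a difference of -0.63 (p = 0.1). No pair of groups can pass 0.05 in this test, so a test over all 4 groups, chosen after the values were seen, was added. The gap differed among the 4 groups (exact permutation p = 0.0102, and from 0.00260 to 0.0349 with an array left out), and among the 3 groups without the 2-day wounds (exact permutation p = 0.0429). A probe with a steeper response would also change the gap between groups, and that was not tested. At 2 days both probes lay near the lower quartile of the arrays, where low signal alone can hold the gap near 0. The widening from 2 days and the test over all 4 groups include those arrays, and the part of low signal was not tested.

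The other VWF probes were low and were not called. Probe axo07039-f_at had group means of 4.61, 4.60, 4.45 and 4.53 in uninjured skin and at 2, 14 and 21 days, and all 12 arrays lay within 0.309 of each other. Probe axo07040-f_at had means of 3.21, 3.30, 3.29 and 3.49 and lay below the lower quartile in every array. Neither was called in any comparison with uninjured skin (adjusted p = 0.957, 0.311 and 0.632 for axo07039-f_at, and 0.713, 0.746 and 0.140 for axo07040-f_at, from limma). For axo07039-f_at at 2 days the 95% confidence interval of the Log2-fold change was -0.20 to 0.18, far from the -3.92 of axo07038-r_at. Over the 12 arrays the 3 VWF probes had Pearson correlations of -0.31, 0.28 and -0.40 with each other. VWF therefore rests on 1 of its 3 probes, and MMRN1 on its single probe. Mean signals over the 12 arrays stood at the percentile 69.8 for axo07038-r_at, 33.7 for axo07039-f_at, 7.59 for axo07040-f_at and 60.4 for MMRN1. Which probes hybridise well was not tested, and the mean of all 3 VWF probes, an alternative chosen after seeing the data, fell by 1.28 at 2 days (adjusted p = 0.000732 from limma).

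Genes that bind VWF or MMRN1, that belong to the EMILIN family or that handle the storage granules changed in both directions. Of 34 such genes 21 were measured. At 2 days 3 rose and 3 fell (5.42% and 3.86% of all probes). At 14 days a rise and a fall were called in 1 gene each (4.56% and 2.56% of all probes), and at 21 days in 3 genes and in 1 (6.62% and 5.99%). The counts of 1 gene in 21 at 14 and 21 days are near those shares. The median change of the list was 0.06, 0.10 and 0.07 at the 3 times, beside 0.02, 0.01 and -0.01 over all probes.

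ADAMTS13, the protease that cuts VWF, was lower alongside VWF at 2 days. It read 7.63, 7.30 and 6.97 in uninjured skin and 5.20, 5.05 and 4.81 at 2 days, a difference of -2.28 ± 0.43 (standard error) with an adjusted p = 0.00990 from limma. At 14 days ADAMTS13 read 5.31, 6.51 and 5.20 (-1.63, adjusted p = 0.0493) and at 21 days 7.91, 6.20 and 6.71 (-0.36, adjusted p = 0.676). All 2-day and 14-day arrays lay below all uninjured arrays, and the 21-day arrays did not. The 14-day call of ADAMTS13 was lost in 12 of 26 alternatives. F8, factor VIII, the plasma cargo of VWF, stayed between 4.14 and 4.45 in all arrays, with changes of -0.08, -0.04 and -0.04 (adjusted p = 0.720, 0.892 and 0.876 from limma). Its values lie just above the lower quartile.

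F5, factor V, the ligand of multimerin 1, read 5.03, 5.41 and 3.72 in uninjured skin, 3.89, 3.60 and 3.69 at 2 days, 4.64, 5.71 and 4.68 at 14 days, and 7.57, 5.97 and 6.66 at 21 days. The 21-day arrays lay above all others, by 2.01 ± 0.49 (standard error) against uninjured skin, with an adjusted p = 0.0231 from limma, and by 3.00 against 2 days (adjusted p = 0.00204). The 21-day call of F5 was lost in 5 of 25 alternatives (adjusted p up to 0.204), among them those without uninjured replicate 3 (1.51, adjusted p = 0.0511), without 21 dpi replicate 1 (1.59, adjusted p = 0.0836) and without 21 dpi replicate 3 (2.05, adjusted p = 0.0696). At 2 days the F5 change was -0.99 (adjusted p = 0.249). In the same 21-day arrays MMRN1 lay within its uninjured range.

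Of the EMILIN family relatives of MMRN1, EMILIN2 also fell at 2 days. It went from 7.50, 7.33 and 6.32 to 4.70, 4.78 and 4.85, a change of -2.27 ± 0.24 (standard error) with an adjusted p = 0.000545 from limma, and was 7.34 and 7.59 in the mean at 14 and 21 days. EMILIN1, an elastic fibre glycoprotein, changed by -0.46 at 2 days (adjusted p = 0.0434) and was higher by 0.62 at 14 days (adjusted p = 0.0140) and by 1.53 at 21 days (adjusted p = 0.000131). Its 21-day arrays, at 5.59, 5.83 and 5.67, were above all others, and its 2-day fall was lost in 16 of 25 alternatives. MMRN2, the endothelial paralogue of MMRN1, was listed at group means of 3.38, 3.31, 3.27 and 3.45, below the lower quartile, and no change was called. EMILIN3 had changes of -0.67, -0.62 and -0.36 and was not called.

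Among genes that move and release the granules, SYTL4, a synaptotagmin-like protein of granule exocytosis, rose by 1.00 at 2 days (adjusted p = 0.0215 from limma) and ANXA2, annexin A2, by 0.55 (adjusted p = 0.00835). S100A10, also in the list, rose by 0.50 at 2 days (adjusted p = 0.0346 from limma). RAB27A, a small GTPase of Weibel-Palade bodies, was lower by 1.18 on the log2 scale at 21 days (from 7.63 to 6.46, adjusted p = 0.0150). The second probe of SYTL4 stood at 0.48 at 2 days (adjusted p = 0.169 from limma) and at -0.16 and -0.26 later. That of ANXA2 stood at 0.21 at 2 days (adjusted p = 0.601), so the rises of SYTL4 and ANXA2 each rest on 1 of 2 probes. Which cells of the biopsy these granule genes read was not tested.

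**Figure D2:**
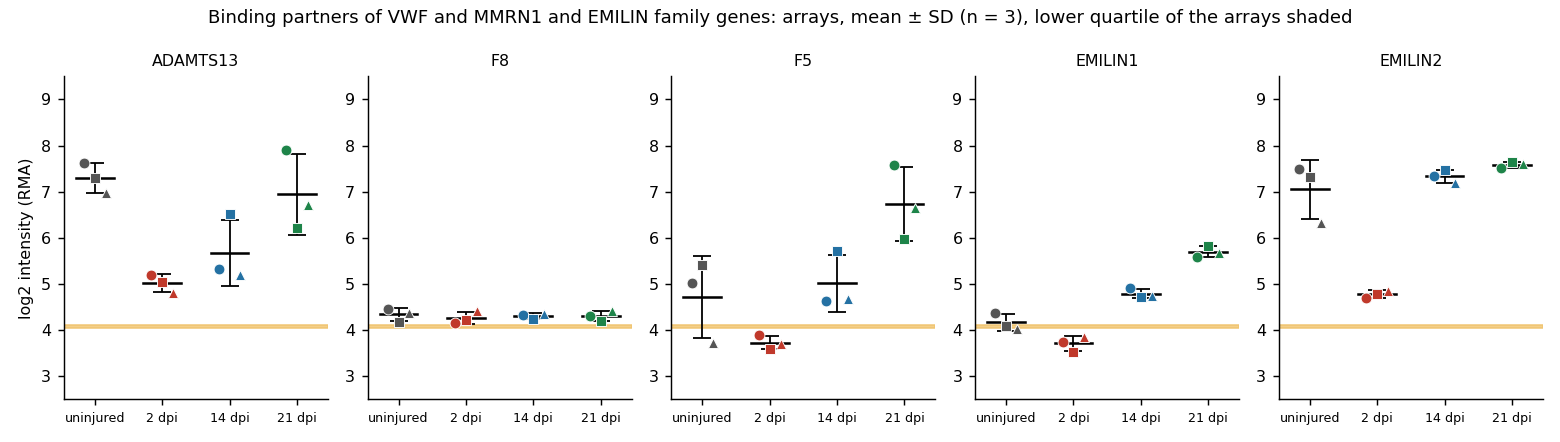
RMA log2 intensity (vertical axis) of ADAMTS13, F8, F5, EMILIN1 and EMILIN2 in the 4 groups. Points are arrays (circle, square and triangle for replicates 1, 2 and 3), black bars are the mean ± SD (n = 3) and the band marks the lower quartiles of the arrays. ADAMTS13 and EMILIN2 are low at 2 dpi, F8 is flat, and F5 and EMILIN1 are highest at 21 dpi.

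By probe axo07038-r_at for VWF, the 2 genes fell further at 2 days than the other endothelial markers measured. The 2 genes and the markers were chosen with earlier results of these data known, so this order is a description. The mean of all 3 VWF probes fell by 1.28, less than AQP1, COL4A2, COL4A1 and HSPG2, and 10 of the markers had a mean below the lower quartile. Of 82 further endothelial markers, a list without VWF and MMRN1, 35 were measured, and at 2 days 6 were lower and 1 higher, with 28 not called (3.86% and 5.42% of all probes). Their median change was -0.08 and their mean -0.42, beside a median of 0.02 over all probes, and 26 of the 35 were below 0. At 14 days limma called 1 rise and no fall, where an unadjusted p under 0.05 counted 4 falls and the alternatives called from 0 to 5. At 21 days it called 3 rises and no fall, where an unadjusted p under 0.05 counted 0 falls and the alternatives called from 0 to 3. Of all probes 4.56% and 6.62% rose and 2.56% and 5.99% fell at 14 and 21 days. The rises called in 1 and 3 of 35 markers are near those shares. Array by array, the mean of the 35 markers, each centred on its own mean, was 0.19, 0.15 and -0.14 in uninjured skin, -0.30, -0.38 and -0.38 at 2 days, -0.03, 0.13 and -0.10 at 14 days, and 0.32, 0.27 and 0.28 at 21 days. The 2-day arrays were the lowest and the 21-day arrays the highest, without overlap with the other groups. At 21 days the mean change of the 35 from uninjured skin was 0.22 and the median 0.09, with 12 below 0, so the mean is not that of a typical marker.

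AQP1, the water channel of capillary endothelium and red cells, fell most. It read 7.53, 7.01 and 5.84 in uninjured skin and 4.37, 3.73 and 4.06 at 2 days, a change of -2.74 ± 0.39 (standard error) with an adjusted p = 0.00252 from limma, then -1.26 at 14 days (adjusted p = 0.0852) and -0.23 at 21 days (adjusted p = 0.784). PECAM1, the adhesion molecule CD31 of endothelial junctions, read 6.32, 6.90 and 5.63 in uninjured skin, 5.31, 4.86 and 5.07 at 2 days, and 6.14 and 6.58 in the mean at 14 and 21 days. Its 2-day change was -1.21 (standard error 0.27, adjusted p = 0.0199) and was lost in 7 of 26 alternatives. TSPAN18, a tetraspanin of endothelium, changed by -0.63 (adjusted p = 0.0143) and by -0.47 in its second probe (adjusted p = 0.0173). The call of the first was lost in 5 of 25 alternatives (adjusted p up to 0.291), among them those without uninjured replicate 1 (-0.52, adjusted p = 0.0512) and without uninjured replicate 2 (-0.60, adjusted p = 0.0590).

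The basement membrane genes COL4A1 and COL4A2, the chains of type IV collagen, changed by -2.36 (adjusted p = 0.0185 from limma) and -2.65 (adjusted p = 0.00976) at 2 days. HSPG2, perlecan, changed by -1.60 at 2 days (adjusted p = 0.00990) and then rose above uninjured skin, by 1.98 at 21 days (adjusted p = 0.00354). These 3 genes are also made by other cells of skin and muscle. TFPI, the inhibitor of the tissue factor pathway, was above uninjured skin at each time, by 0.42 (adjusted p = 0.0497, lost in 16 of 26 alternatives), 1.07 (adjusted p = 0.000709) and 1.25 (adjusted p = 0.000347). TAL1, a transcription factor of blood and vessel precursors, was higher by 1.20 at 21 days (adjusted p = 0.0437), a call lost in 13 of 25 alternatives.

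Several defining endothelial markers had low signal or were not called, so the label of the list is only partly borne by these arrays. CDH5, VE-cadherin, had means of 3.85, 3.77, 4.17 and 4.31, and TEK, the angiopoietin receptor, of 3.65, 3.31, 3.57 and 3.74 in uninjured skin and at 2, 14 and 21 days. KDR, the main receptor for vascular endothelial growth factor, stayed at 4.58, 4.58, 4.63 and 4.58. ERG, an endothelial transcription factor, stayed at 5.27, 5.23, 5.37 and 5.36, and both lay above the lower quartile. TIE1 and PROX1, the latter a regulator of lymphatic identity, were listed at 2.98 and 2.81 in uninjured skin. All 6 missed the threshold at each time, and their lowest adjusted p from limma was 0.144 for CDH5 at 21 days and 0.200 for TEK at 2 days. LYVE1, a hyaluronan receptor of lymphatic endothelium, had a 2-day change of -0.77 (adjusted p = 0.0624). In all, 10 of the 35 markers had a mean below the lower quartile, CDH5, FLT1, TEK, TIE1 and PROX1 among them.

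**Figure D3:**
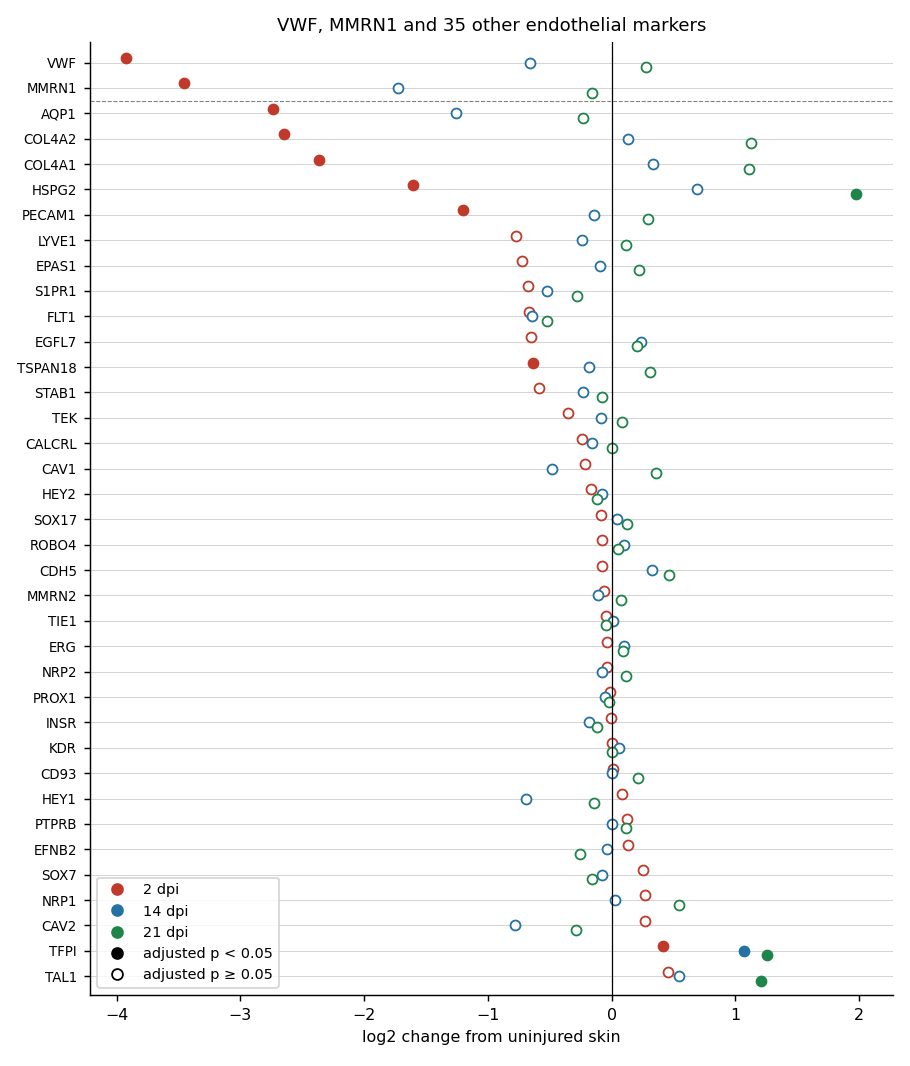
Log2 change from uninjured skin (horizontal axis) of VWF (axo07038-r_at), MMRN1 and 35 further endothelial markers at 2 dpi (red), 14 dpi (blue) and 21 dpi (green), ordered by the 2-day change. Filled points have an adjusted p under 0.05 from limma, and VWF at -3.92 and MMRN1 at -3.45 lie beyond AQP1 at -2.74.

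In a list of pericyte and smooth muscle genes of the vessel wall, 7 of 15 measured (of 24 listed) fell at 2 days, as VWF and MMRN1 did. None was higher (limma, 0 higher at an unadjusted p under 0.05), and 3.86% of all probes were lower. ACTA2, smooth muscle actin, changed by -4.74, TAGLN, transgelin, by -4.20, CNN1, calponin, by -4.09, MYH11, smooth muscle myosin, by -3.47 and MYL9 by -1.94. These genes also mark myofibroblasts. PDGFRB, CSPG4, ABCC9 and KCNJ8, among the listed genes that mark pericytes, changed by -0.21, 0.14, 0.09 and -0.23 at 2 days. None of them was called (adjusted p = 0.270, 0.322, 0.655 and 0.258 from limma). All of these had means below the lower quartile, so they do not show a fall of pericyte markers. MCAM, another gene of this list, had a mean of 6.32, above the lower quartile. Its 2-day change was -0.78 (adjusted p = 0.0159 from limma), and which cells it reads was not tested. Later, limma called 1 rise and 3 falls at 14 days, where 4.56% of all probes rose and 2.56% fell. At 21 days it called 4 rises and 1 fall, where 6.62% of all probes rose and 5.99% fell. The 14-day rise and the 21-day fall were near those shares. CNN1 was still lower at 21 days (-2.05, adjusted p = 0.00341), whereas VWF was not.

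Thrombocyte and platelet markers, which cover the cells that hold both proteins beside endothelium in mammals, were higher where they were called. Of 28 listed, 9 were measured, and the megakaryocyte and platelet receptors for VWF were not among them. At 2, 14 and 21 days 3, 4 and 4 were higher and none was lower (limma, 0 lower at an unadjusted p under 0.05), where 5.42%, 4.56% and 6.62% of all probes were higher. PLEK, pleckstrin, rose by 1.94, 1.26 and 0.86, SRGN, serglycin, by 0.99, 1.32 and 1.19, and RGS18 by 1.04 at both later times. NFE2, a transcription factor of the megakaryocyte and red cell lines, was higher by 2.53 at 21 days (adjusted p = 0.0186), and FERMT3, kindlin 3, by 0.80 at 2 days (adjusted p = 0.0441). These genes are also expressed in other white or red blood cells. Beside the same shares of all probes, macrophage and monocyte markers were higher in 11, 14 and 14 of 25 genes at the 3 times, with none lower by limma (0, 0 and 1 lower at an unadjusted p under 0.05). Erythrocyte markers were called in 0, 0 and 4 of 10 genes, all 4 higher at 21 days (limma, with 2, 2 and 8 higher at an unadjusted p under 0.05).

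Of 12 measured coagulation and fibrinolysis genes (of 32), 1 rose and none fell at 2 days (limma, 0 falls at an unadjusted p under 0.05), 3 rose and 1 fell at 14 days, and 4 rose and 1 fell at 21 days. Of all probes 5.42%, 4.56% and 6.62% rose and 3.86%, 2.56% and 5.99% fell at the 3 times, so that the 1 rise of 12 at 2 days is near the share of all probes. TFPI and F5 are among them. F3, tissue factor, was lower by 1.32 on the log2 scale at 14 days (adjusted p = 0.0229) and F13B, a subunit of factor XIII, rose by 1.68 (adjusted p = 0.0120). ANXA5, annexin A5, rose by 0.64 at 14 days (adjusted p = 0.0452). At 21 days the changes of F3, F13B and ANXA5 were -1.46, 2.05 and 0.65 (adjusted p = 0.0100, 0.00354 and 0.0278 from limma). Among 11 vessel growth ligands and matrix genes (of 29), 2 rose and 1 fell at 2 days, 2 rose at 14 days and 4 at 21 days, beside those same shares. ANGPTL2, an angiopoietin-like protein, rose by 1.22, 2.05 and 2.80 at the 3 times. THBS2, thrombospondin 2, fell by 1.46 on the log2 scale at 2 days and rose by 1.88 and 2.44 later. HIF1A, the oxygen-sensitive transcription factor, was higher by 0.61 at 2 days, FGF2 by 1.25 at 21 days (adjusted p = 0.0323), and EPAS1, the related factor of endothelium, stood at -0.72 at 2 days (adjusted p = 0.0762).

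Markers of the tissues around the vessels moved with VWF and MMRN1 across the arrays. Centred on each gene's mean, 45 skeletal muscle markers (of 62) averaged 1.61, 1.57 and -0.54 in uninjured skin, -0.28, -1.87 and -2.22 at 2 days, -0.75, 0.88 and -1.02 at 14 days, and 1.46, 0.26 and 0.90 at 21 days. Uninjured replicate 3 was the lowest uninjured array for muscle, for VWF and for MMRN1, and 14 dpi replicate 2 was the highest 14-day array for all 3. The mean of 23 fibroblast markers (of 30) was 0.40, 0.13 and 0.08, then -1.55, -2.20 and -2.54, then 0.32, 1.01 and 0.23, and at 21 days 1.54, 1.22 and 1.36. Within groups, VWF and MMRN1 put the 3 arrays in the same order in 3 of 4 groups and shared the lowest array in 4 of 4. The array with the highest MMRN1 was also the one with the highest mean of muscle, fibroblast and endothelial markers in 4 of 4 groups, and for VWF in 3 of 4. The mean of 26 epidermal markers (of 42) ran from 0.33 to 0.51 at 2 days and from -0.59 to -0.14 at 21 days, and its order of arrays matched neither gene in any group.

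At 2 days 12 muscle markers and 13 fibroblast markers were lower and none was higher, and 4 epidermal markers were higher and none lower (limma, 0 muscle and fibroblast markers higher and 1 epidermal marker lower at an unadjusted p under 0.05). Of all probes 5.42% were higher and 3.86% lower. At 14 days limma called a fall in 1 muscle marker of 45, where 2.56% of all probes fell and 4.56% rose. At an unadjusted p under 0.05, 14 muscle markers were lower and 0 higher. The share of all probes at that unadjusted threshold was not worked out, so this count has no background beside it. The median change of the muscle markers was -0.93, beside 0.01 over all probes, and 43 of the 45 were below 0. At the same time 6 fibroblast markers rose, and of the epidermal markers 2 rose and 1 fell. At 21 days limma called 0 muscle markers (1 at an unadjusted p under 0.05), 9 fibroblast markers as higher and 2 epidermal markers as lower, where 6.62% and 5.99% of all probes were higher and lower. With the muscle mean of each array as a covariate, the 2-day change was -2.86 for VWF (adjusted p = 0.00105 from limma) and -1.97 for MMRN1 (adjusted p = 0.0333). With the epidermal mean it was -3.37 and -2.69, both called. With the mean of the 35 endothelial markers it was -2.35 for VWF (adjusted p = 0.0438) and -0.80 for MMRN1 (adjusted p = 0.207). These covariates move with the groups themselves, and the part of the tissue mix in the 2-day fall was not tested apart from them.

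**Figure D4:**
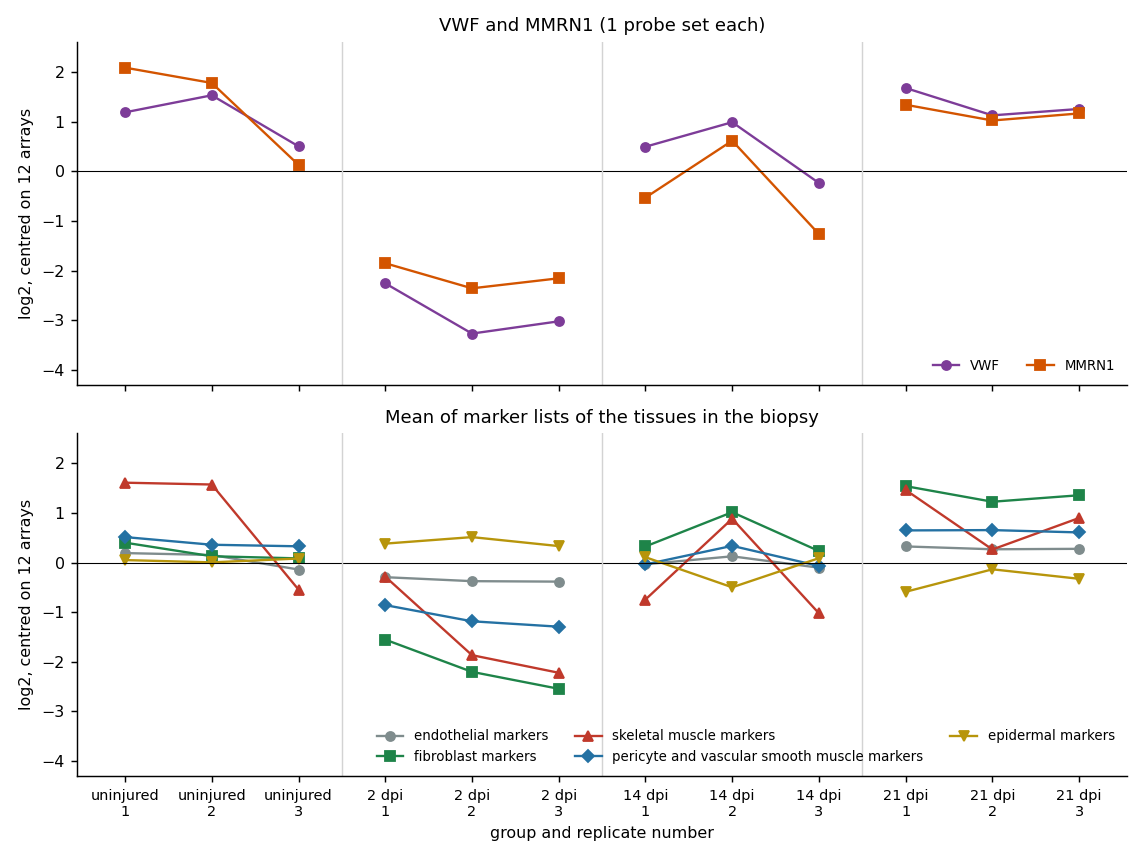
Values by array (horizontal axis, group and replicate number) on the log2 scale, each gene centred on its mean over the 12 arrays. The upper panel shows VWF (axo07038-r_at) and MMRN1, the lower panel the means of 5 marker lists, and lines only join the arrays of a group. Uninjured replicate 3 is low in VWF, MMRN1 and the skeletal muscle mean.

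The genes whose course was most like that of VWF were mostly matrix genes, and those most like MMRN1 were mostly muscle genes, 5 of 8 in each. Likeness is Pearson's r over the 12 arrays, which share 4 groups, given as a description. Genes with a symbol were ranked, each by its probe of highest r, 8638 in all. For VWF (axo07038-r_at) the 8 most alike were MGP (matrix Gla protein, r = 0.984), DPT (dermatopontin, 0.978), RBP4 (a retinol carrier, 0.977), POSTN (periostin, 0.977), FERMT2 (kindlin 2, 0.975), OLFML3 (an olfactomedin-like matrix protein, 0.973), PTPRM (a receptor phosphatase, 0.972) and FBN1 (fibrillin 1, 0.971). The 2-day changes of these 8 genes ran from -5.92 for MGP to -0.96 for PTPRM. The 3 least alike were RP2 (-0.977), PELI1 (a ubiquitin ligase of immune signalling, -0.968) and UBE2A (a ubiquitin-conjugating enzyme, -0.960), which rose by 1.11, 1.54 and 0.82 at 2 days. Ranked by Spearman's rho, 2 of the 8 stayed among the first 8.

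For MMRN1 the 8 most alike were FBLN5 (the elastic fibre protein fibulin 5, r = 0.985), DNASE1L3 (a secreted DNase, 0.985), TNNI1 and TNNT1 (slow muscle troponins, 0.985 and 0.974), MYOZ2 (0.977), MYBPC1 (0.974) and ACTN2 (0.973), sarcomere genes, and TRIM35 (0.972). FBLN5 had means of 8.95 in uninjured skin and 6.89 at 14 days and TNNI1 of 11.03 and 8.35, so that both stood below uninjured skin at 14 days, like MMRN1. Least alike were SPAG6 (-0.963), CHMP1B (-0.958) and ARG1 (arginase 1, -0.953), of which ARG1 rose by 2.30 at 2 days. Of the 8 most alike, 4 stayed among the first 8 by Spearman's rho. VWF and MMRN1 had r = 0.927 (rho 0.951) with each other, which placed MMRN1 at rank 58 for VWF and VWF at rank 60 for MMRN1.

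By list, with 1 probe a gene, 8 of 35 endothelial markers had an r above 0.8 with VWF and 8 with MMRN1, beside 3.24% and 3.43% of all genes. COL4A2 was most like VWF (0.948) and AQP1 most like MMRN1 (0.960). The same count was 11 of 23 fibroblast markers for each gene, 12 of 45 muscle markers for VWF and 30 of 45 for MMRN1, and 6 and 5 of 15 pericyte and smooth muscle markers. By this probe, the one of highest mean signal, no thrombocyte, coagulation, erythrocyte, macrophage or epidermal marker reached 0.8 with either gene. With each gene read by its probe of highest r, the 100 genes most like VWF or MMRN1 are 1.16% of those ranked. Among the 100 for VWF were 9 of 23 fibroblast, 8 of 45 muscle, 5 of 15 pericyte and smooth muscle, 5 of 35 endothelial and 2 of 26 epidermal markers. For MMRN1 these counts were 2, 15, 3, 2 and 1. Of the partners, EMILIN2 was most like VWF (0.947) and ADAMTS13 most like MMRN1 (0.914). The flat probes had other neighbours. For axo07039-f_at the highest r was 0.891 with UROC1, and for axo07040-f_at 0.912 with KLHL12. No endothelial marker was among the 100 genes most like either, and 0 of 35 is near the 1.16% of all ranked genes.

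**Figure D5:**
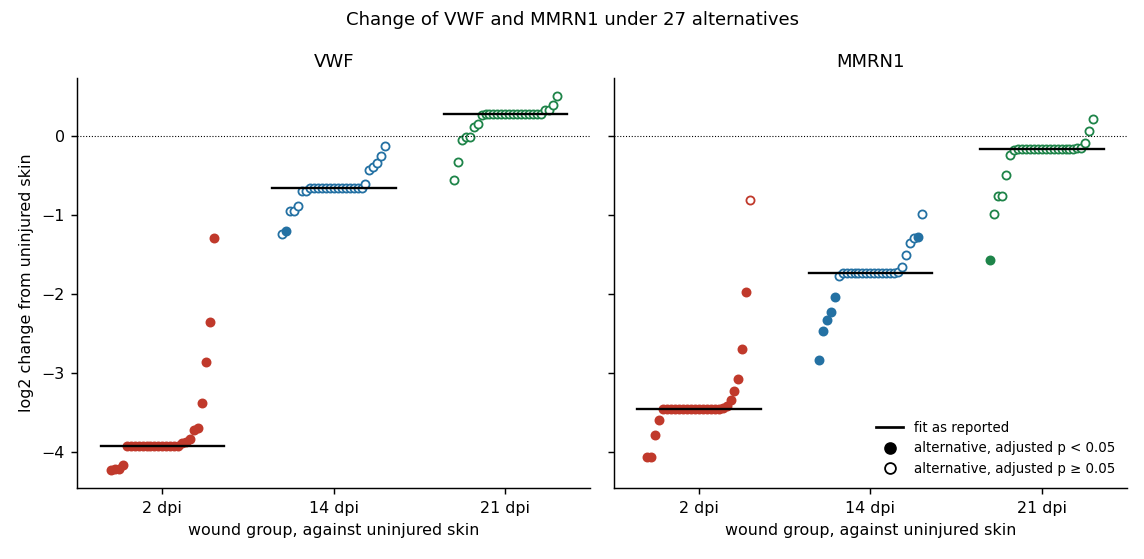
Log2 change from uninjured skin (vertical axis) of VWF (left) and MMRN1 (right) under 27 alternatives per comparison, sorted by value within each wound group (horizontal axis). The bar is the value as reported, filled points have an adjusted p under 0.05 from limma, and the 2-day changes stay below 0 in every alternative plotted.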

How the data were processed

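RNA of 12 axolotl skin biopsies was hybridised to 1-colour Affymetrix axolotl arrays. The values the authors deposited are log2 intensities from robust multi-array average (RMA), which corrects background, normalises between arrays and summarises each probe set. The labels name Affymetrix Expression Console and the paper the Bioconductor affy package, with no version given in the sources used here. Scanner intensities were not analysed. After 45 control probes were removed from 20080, the other 20035 entered the fit with limma 3.58.1 under R 4.3.3 (lmFit, eBayes, 4 group means, 8 residual degrees of freedom, no filter). The p-values are two-sided with Benjamini-Hochberg adjustment per comparison, at a threshold of 0.05. Shares of all probes called refer to the adjusted p. Counts at an unadjusted p stand without the share of all probes at that threshold. A gene call at any time was a moderated F-test, which called 21.5% of all probes, VWF (axo07038-r_at, adjusted p = 0.000193) and MMRN1 (adjusted p = 0.00339), and missed axo07039-f_at and axo07040-f_at (adjusted p = 0.450 and 0.294).

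Symbols came from the platform annotation, with 1 symbol for 10951 probes (8639 genes), several for 0 and none for 9084. A list gene was read by its probe of highest mean signal. The members and the lists (endothelial, partners, thrombocyte and platelet, coagulation and fibrinolysis, pericyte and vascular smooth muscle, vessel growth, erythrocyte, skeletal muscle, epidermal, macrophage and monocyte, fibroblast) were chosen with earlier results of these data known. Genes named are all VWF and MMRN1 probes, the 8 most and 3 least alike, endothelial genes called at any time, and of the vascular and blood lists the 5 of smallest F-test p and direct binders. EMILIN3, the low or uncalled endothelial markers, further partners and EPAS1 were named after their values were seen.

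Replicate numbers were not used to pair the arrays. Deviations of same-numbered arrays from their group means correlated over probes between -0.65 and 0.48, over 0.1 in 5 of 18 pairs. In 36 pairs of other numbers the range was -0.47 to 0.65. With 3 arrays a group this does not settle if animals were shared. Array medians lay between 5.52 and 5.61, and Pearson's r between arrays, across probes, between 0.924 and 0.994. Precision is limited by the 3 arrays of each group. The fit was tested on simulated data. Alternatives were filters on low signal, other scalings, variance models and fits, array weights, arrays left out, a replicate block and marker means as covariates.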

Additional observations from a re-analysis of the deposited data

Results flagged for a closer look

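Where the change from uninjured skin differed between wound times by limma's test of the difference itself (adjusted p under 0.05), the result is listed here. All these comparisons share arrays, and outliers were not tested because each group holds 3 arrays.

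Against the 2-day wounds, the 14-day values were higher for VWF (3.27), COL4A2 (2.78), COL4A1 (2.70), EMILIN2 (2.56), HSPG2 (2.29), AQP1 (1.48), EMILIN1 (1.08), PECAM1 (1.06) and TFPI (0.65), and lower for ANXA2 (-0.41), all on the log2 scale. MMRN1 is not among them. Outside this selection, the endothelial marker CAV2 was lower at 14 than at 2 days (-1.05, adjusted p = 0.0148 from limma).

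The 21-day values were higher than the 2-day values for VWF (4.20), COL4A2 (3.78), HSPG2 (3.58), COL4A1 (3.47), MMRN1 (3.30), F5 (3.00), EMILIN2 (2.81), AQP1 (2.51), EMILIN1 (1.99), ADAMTS13 (1.92), PECAM1 (1.50), TSPAN18 (0.94) and TFPI (0.84), and lower for ANXA2 (-0.42). Of the endothelial markers outside this selection, EPAS1 (0.94) and LYVE1 (0.88) were also higher at 21 than at 2 days by limma. Of the other partners, RAB27A (-1.29), CD63 (-0.54) and STXBP5 (-0.31) were lower. Between 14 and 21 days, EMILIN1 alone of this selection differed (0.91). Outside it, the smooth muscle gene MYL9 also differed (1.02, adjusted p = 0.0265 from limma).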

How the results depend on the processing

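The 2-day fall of VWF was called in all 27 alternatives (-4.22 to -1.28, adjusted p from 6.03e-05 to 0.0438 from limma). All of them read axo07038-r_at alone, except the mean of the 3 VWF probes (-1.28), whose fall comes from that probe. The other VWF probes were called at 2 days in 0 of 25 alternatives, so the called fall depends on reading VWF by axo07038-r_at. Which of the 3 probes reads VWF RNA was not tested. The 2-day fall of MMRN1 was called in 26 of 27, all but the endothelial marker mean as a covariate (-0.80, adjusted p = 0.207). With arrays left out in turn VWF ranged from -4.22 to -3.69 and MMRN1 from -4.06 to -3.08. With the replicate number as a block, the 2-day changes stayed at -3.92 (adjusted p = 0.000902) and -3.45 (adjusted p = 0.00506), no call of VWF or MMRN1 changed, and 0 endothelial markers were higher at 2 days in place of 1. The block also ended the calls of TFPI and EMILIN1 at 2 days, ADAMTS13 at 14 days and TAL1 at 21 days. Array weights gave calls at 14 days for VWF (-1.20) and MMRN1 (-2.47) and between 14 and 21 days (1.15 and 1.98), and turned VWF at 21 days to -0.045. Without uninjured replicate 3 and 14 dpi replicate 2 together, MMRN1 was called at 14 days (-2.83), at 14 against 2 days (1.22) and at 21 against 14 days (2.07), and VWF at 21 days was -0.0061. The epidermal mean as a covariate gave -2.03 for MMRN1 at 14 days (called), -0.32 for VWF at 21 days and 1.71 for MMRN1 at 21 against 2 days (not called). The endothelial mean gave MMRN1 calls at 14 days (-1.27) and 21 days (-1.56), took VWF at 21 against 2 days to 1.80 (not called), and turned VWF at 21 days (-0.55), VWF at 21 against 14 days (-0.16), and MMRN1 at 14 against 2 (-0.47), 21 against 2 (-0.76) and 21 against 14 days (-0.29), none of these 5 called. The cause of these shifts was not tested.

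With arrays left out in turn, VWF at 21 days ranged from -0.0061 to 0.51 (lowest without uninjured replicate 3) and MMRN1 from -0.76 to 0.22 (above 0 without uninjured replicate 1 or 2). MMRN1 at 14 days ranged from -2.33 to -1.29, and at 14 against 2 days from 1.22 to 2.16. The 6 endothelial markers lower at 2 days became 11 with array weights, 3 in a fit of the groups compared, 12 without both arrays, 0 with the muscle mean and 1 with the epidermal mean, and 3 to 10 with an array left out (3 without uninjured replicate 1 or 2, 10 without replicate 3). The 1 higher at 2 days became 0 with the 25th percentile filter, quantile normalisation, a trend, the groups compared alone or the muscle mean, 2 without both arrays, and 0 to 1 with an array left out. At 14 days the lower count of 0 became 1 under both filters, quantile normalisation, either tissue mean and joint adjustment, 5 with weights, 3 without both arrays and 0 to 3 with an array left out (3 without uninjured replicate 3), and the higher count of 1 became 2 without both arrays and 3 with the muscle mean. At 21 days the lower count of 0 became 3 with weights, 1 without both arrays and 0 to 1 with an array left out, and the higher count of 3 became 5 with weights and with the muscle mean. Probes called numbered 1859, 1427 and 2528 at 2, 14 and 21 days and ranged over 159 to 3451, 324 to 3123 and 913 to 6703. With Spearman's rho, 2 and 4 of the 8 genes most like VWF and MMRN1 stayed. PECAM1 and COL4A1 at 2 days each lost the call in 7 of 26 alternatives. Values near or below the lower quartile (2-day VWF and MMRN1, CDH5, TEK, F8) may hold a share of background, which was not tested.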
